A study of Mus musculus with 15 samples.

Results

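The conventional CD4 T cells described here were 1228 of 128019 aortic cells that passed the cell filter, out of 130551 barcodes deposited. They were chosen from single-cell RNA counts of whole mouse aortas by the unique molecular identifiers (UMIs, one per captured RNA molecule) of a few genes. A member had 200 to 7000 genes and at most 25% mitochondrial UMIs, a UMI of at least 2 of the T cell receptor complex genes Cd3d, Cd3e, Cd3g and Trac, and 1 or more UMIs of Cd4. It had no UMI of Cd8a or Cd8b1 (CD8 T cells), Foxp3 (regulatory T cells), Ms4a1 (B cells), Cdh5 (endothelial cells) or Csf1r (macrophages), and at most 1 UMI of the fibroblast genes Lum and Pdgfra together. By the same receptor genes 5994 cells were T cells, of which 2358 were CD8 T cells and 279 were regulatory T cells.

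The 15 libraries came from C57BL/6N mice of both sexes in 4 groups. Young vehicle (Y VEH) and young fisetin (Y FIS) had 4 libraries each, 2 female (F1, F2) and 2 male (M1, M2). Old fisetin (O FIS) also had 4, whereas old vehicle (O VEH) had 3 (F1, F2 and M1). Old mice were 27 months of age, and young mice were 3 months by the series' design text and 6 months by the study's methods. Fisetin, a plant flavonoid used as a senolytic, was given by gavage at 100 mg/kg/day for 1 week, withheld for 2 weeks and given for 1 more week. Vehicle mice followed the same schedule, and aortas were taken 1 to 2 weeks after the last dose, perfused and cleared of perivascular fat before viable cells were sorted. Each library pooled the aortas of 3 mice by the labels (2 to 3 by the methods), so the replicate is a pool and a p-value measures the spread between pools. The young group held 785 members and the old group 443.

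CD4 T cells recognize peptides on MHC class II through the T cell receptor and its CD3 chains, with CD4 as coreceptor, and direct other immune cells by the cytokines they release. Naive cells recirculate through lymph nodes under homing receptors such as CCR7, and the transcription factors TCF1 and LEF1 mark that state. After meeting antigen they lose these, gain adhesion molecules and chemokine receptors for inflamed tissue, and some take on effector programmes, among them a cytotoxic one that shares granule proteins and chemokines with CD8 T cells and natural killer cells. In the aorta, T cells reside mainly in the adventitia, and their number is known to rise with age and in atherosclerosis.

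Of T cell markers that the rule did not use, Trbc2 and Lck were no more frequent in members than in CD8 T cells, whereas Cd28 and Cd5 were. A UMI of the receptor constant gene Trbc2 was present in 97.1% of members, of the kinase Lck in 87.7%, of the costimulatory receptor Cd28 in 85.7% and of Cd5 in 71.3%. In CD8 T cells the shares were 97.3% for Trbc2, 92.5% for Lck, 73.2% for Cd28 and 46.3% for Cd5. The natural killer gene Ncr1 was found in 0.244% of members and the gamma delta receptor gene Trdc in 1.30%. Among regulatory T cell genes other than Foxp3, Il2ra was detected in 7.90% of members against 48.7% of the Foxp3-positive cells, and Ikzf2 in 33.6% against 89.2%. Genes used here as markers of other aortic cells were detected as well. The fibroblast marker Dcn had a UMI in 57.4% of members, the endothelial marker Pecam1 in 57.0%, the macrophage markers Lyz2 and C1qa in 28.9% and 10.0%, and the B cell marker Cd79a in 5.13%. In CD8 T cells Dcn was detected in 60.8% and Pecam1 in 46.3%. The source of this RNA was not tested.

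At the edge of the rule, 591 members had 1 Cd4 UMI, 298 had 2 and 339 had 3 or more. A further 1477 cells met every other condition with 0 Cd4 UMIs, and of those 22.7% had a Trdc UMI and 3.52% an Ncr1 UMI. Cd28 was detected in 57.1% of cells with no Cd4 UMI, 83.1% of members with 1 and 92.3% of members with 3 or more. All 4 receptor genes were present in 1042 members, 3 in 141 and 2 in 45, and 38 cells with only 1 were left outside. The 1-UMI allowance for Lum and Pdgfra was used by 125 members. Cells that failed on a single excluded gene numbered 133 for Foxp3, 170 for Cdh5, 85 for Cd8b1, 56 for Ms4a1, 47 for Csf1r and 7 for Cd8a.

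Libraries held 49964001 to 74587567 UMIs and 6372 to 14805 kept cells, and 8 to 51 barcodes (median 20) were shared between any pair of libraries. Member cells had 607 to 47404 UMIs, with library medians of 4882.5 to 7612 that spanned both ages. Summed over members, a library held 123217 (O FIS M1, 21 cells) to 1084091 UMIs (O VEH M1, 126 cells), so the smallest libraries carried the least precise levels. Of the other-cell marker lists, the summed B cell genes stood at 34483, 29892 and 51248 CPM (a library's counts scaled to one common total) in Y VEH F1, Y VEH F2 and O VEH F2, against 162 to 2461 CPM in the other 12 libraries. Each of those 3 libraries had 1 member with 50 or more UMIs of the immunoglobulin gene Igkc, as had O FIS F1. Erythroid genes reached 8151 CPM in Y FIS F2, against 19.3 to 315 CPM elsewhere. Cells with thymocyte genes were present beside the members: 622 T cells carried both Cd4 and Cd8 UMIs, and 532 of them had a UMI of a thymocyte gene (Rag1, Rag2, Dntt, Ptcra or Arpp21). Of these, 244 were in Y VEH F1. The rule removed double-positive cells, and 38 members had a thymocyte gene, 8 of them in Y VEH F1.

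The abundance of CD4 T cells was compared first, since it sets how many cells stand behind each later value. They made up 0.970, 1.44, 1.80 and 1.96% of kept cells in the Y VEH libraries F1, F2, M1 and M2, and 0.828, 0.776, 0.811 and 0.997% in Y FIS. In old aortas the shares were 0.534, 0.699 and 1.49% in O VEH F1, F2 and M1, and 1.67, 0.427, 0.210 and 0.241% in O FIS F1, F2, M1 and M2. O FIS F1 stood far above the other O FIS libraries, and the ranges of all 4 groups overlapped. The share was 0.753 ± 0.592% (SD, n = 7) in old and 1.20 ± 0.472% (n = 8) in young aortas, a difference of -0.445 percentage points that did not pass (two-sided permutation test over libraries, exact, p = 0.130, adjusted over 16 comparisons of shares and ratios 0.230). Without O FIS F1 the difference was -0.598 (exact permutation p = 0.0380, unadjusted). With 8 more marker genes required at 0, Pecam1 among them, it was 0.0305 (exact permutation p = 0.522), in the other direction. That stricter rule left 0 members in Y VEH F1 and Y FIS F2 and 1 to 23 in each other library.

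Fisetin was compared with vehicle within each age. Y FIS libraries averaged 0.853 ± 0.0984% (n = 4) against 1.54 ± 0.439% (n = 4) in Y VEH, a difference of -0.689 points (exact permutation p = 0.0571, adjusted 0.152). O FIS averaged 0.638 ± 0.697% (n = 4) against 0.906 ± 0.509% (n = 3) in O VEH, a difference of -0.268 points (exact permutation p = 0.457, adjusted 0.563) that became 0.0216 with 1 library left out. With 3 against 4 libraries this test cannot go below 0.0571.

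The ratio of CD4 to CD8 T cells had a lower mean in old aortas, by a difference that did not pass after adjustment. Both counts need a detected UMI, and 1477 T cells that met the rest of the rule with 0 Cd4 UMIs entered neither. With the rule on cells thinned to 1000 UMIs the ratio ran from 0.105 (O FIS M1) to 0.719 (Y VEH M1). Under that rule a cell with both Cd4 and Cd8 UMIs can lose its Cd4 UMI and count as a CD8 T cell. Thinned CD8 T cells numbered 220 in Y VEH F1 (226 without thinning) and 94 in O FIS F2 (94). In Y VEH F2 they numbered 129 (240 without thinning). Y VEH F1 and O FIS F2 had 249 and 95 such double-positive cells, and their part in the thinned ratio was not tested. Without thinning, the number of CD4 per CD8 T cell was 0.363, 0.525, 1.02 and 1.18 in Y VEH and 0.781, 0.833, 0.343 and 0.763 in Y FIS. It was 0.507, 0.362 and 0.445 in O VEH and 0.667, 0.319, 0.176 and 0.262 in O FIS. Ratios above 0.7 were found only among the 8 young libraries, of which Y VEH F1, Y VEH F2 and Y FIS M1 lay within the old range. On the log2 scale old libraries averaged -1.47 ± 0.636 and young libraries -0.58 ± 0.661, a difference of -0.88 (exact permutation p = 0.0230, adjusted 0.123). The ratio did not differ by fisetin past the threshold in old (-0.46, exact permutation p = 0.4) or young aortas (-0.11, p = 0.857).

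**Figure D1:**
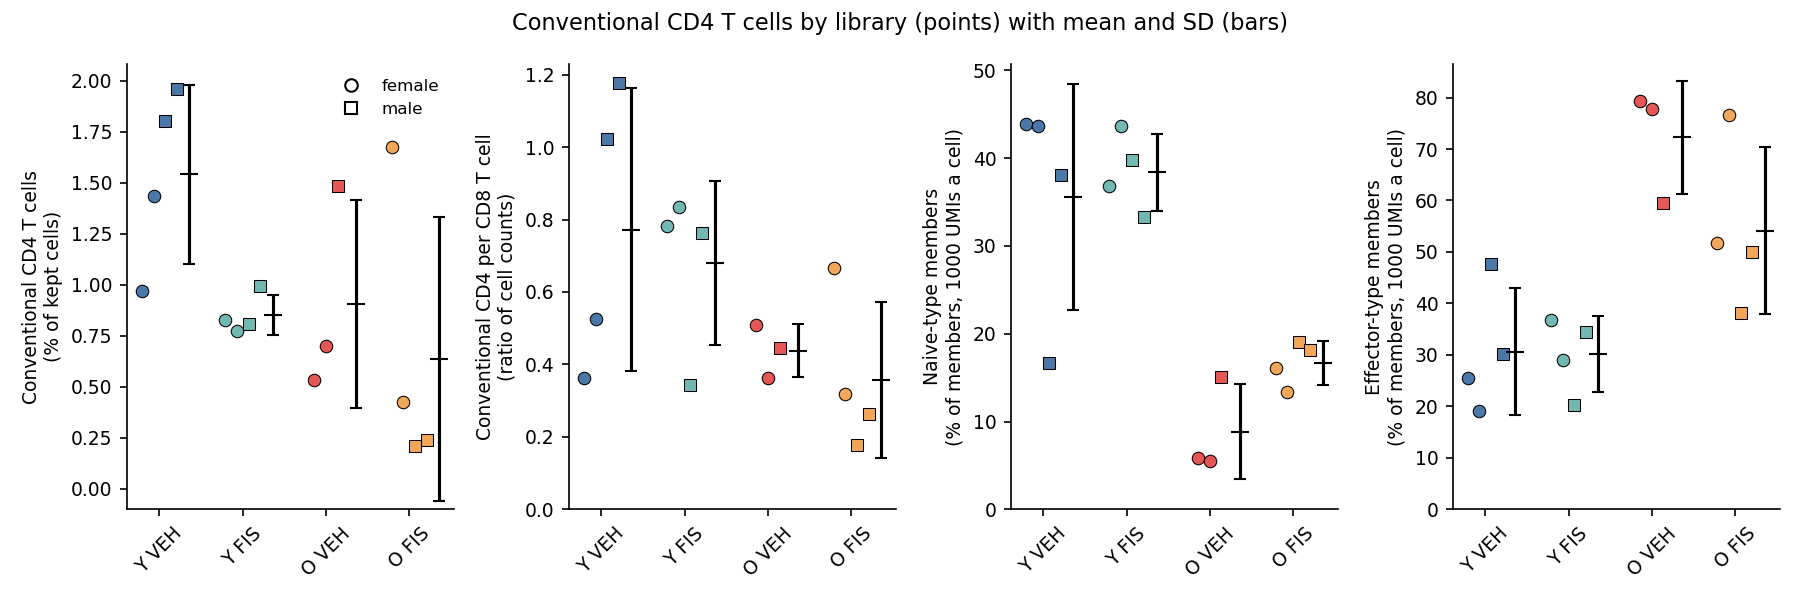
Panels plot, for each library by group, the share of kept cells that were conventional CD4 T cells (%), the number of CD4 per CD8 T cell, and the shares of CD4 T cells of naive type and of effector type (%, each cell thinned to 1000 UMIs). Points are libraries (circles female, squares male) and bars the mean ± SD. Shares of the total overlapped among groups, whereas naive-type shares reached 19.0% at most in old libraries and lay between 16.7 and 43.9% in young ones.

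The shares of CD4 T cells with naive and with effector genes differed by age. To compare cells of unequal depth, each was thinned to 1000 UMIs (3 members had fewer and were left out) and called naive type if it kept a UMI of Ccr7 or Lef1 and none of S100a4, Itgb1, Ccl5, Nkg7, Cxcr6 or Maf. Effector type was the converse. These are ranges cut from detected genes and not cell lineages. The genes of both calls were listed with earlier results of these data known. Ccr7, Lef1, Ccl5, Nkg7 and S100a4 are also DARs by age below, so the shares and those DARs are not independent results. Before TMM scaling Itgb1 had a median of 347 CPM in young CD4 T cells and 362 CPM in all kept young cells (467 and 376 CPM in old), and Maf 130 and 111 CPM (280 and 97.3 CPM in old). The part of RNA from other cells in these calls was not tested. Naive-type cells made up 43.9, 43.7, 16.7 and 38.1% of members in Y VEH and 36.8, 43.6, 39.8 and 33.3% in Y FIS. They made up 5.88, 5.56 and 15.1% in O VEH and 16.1, 13.3, 19.0 and 18.2% in O FIS. All young libraries except Y VEH M1 lay above all old libraries. Old libraries averaged 13.3 ± 5.52% (n = 7) and young libraries 37.0 ± 9.04% (n = 8), a difference of -23.7 points (exact permutation p = 0.000932, adjusted 0.00746).

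Effector-type cells showed the reverse. They were 25.6, 19.0, 47.7 and 30.2% of members in Y VEH, 36.8, 29.1, 20.3 and 34.5% in Y FIS, 79.4, 77.8 and 59.5% in O VEH and 51.8, 76.7, 38.1 and 50% in O FIS. The O VEH libraries stood above all young libraries, and only O FIS M1 among the old lay below the highest young library, Y VEH M1. Old libraries averaged 61.9 ± 16.3% and young libraries 30.4 ± 9.36%, a difference of 31.5 points (exact permutation p = 0.000622, adjusted 0.00746). With the same 8 marker genes required at 0, Pecam1 among them, it was 27.8 points and did not pass (exact permutation p = 0.133), over 13 libraries of 1 to 22 members each. Cells with neither kind of gene stood at a median of 22.8% in young and 8.82% in old libraries.

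Within the old aortas the naive-type share was 16.7 ± 2.55% (n = 4) with fisetin and 8.84 ± 5.41% (n = 3) with vehicle, and the effector-type share 54.1 ± 16.2% and 72.2 ± 11.04% in the same order. Neither difference passed (7.82 and -18.1 points, both with exact permutation p = 0.114 and adjusted 0.229). Y VEH and O VEH libraries did not overlap in either share, at the smallest p this design allows (0.0571, exact permutation, adjusted 0.152). In young aortas fisetin shifted neither share past the threshold (2.83 points, exact permutation p = 0.886, for naive type and -0.447 points, p = 0.943, for effector type).

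RNA levels were then compared by summing the members' UMIs per library and testing 7067 genes for old against young over both treatments with edgeR's quasi-likelihood test, with treatment group and sex in the model. A gene was called a differentially abundant RNA (DAR) when its log2 fold change exceeded 0.25 in either direction at a Benjamini-Hochberg adjusted p below 0.05. There were 270 DARs, 3.82% of the genes tested, of which 148 were higher (2.09%) and 122 lower (1.73%) in old aortas, and for 46 of them every old library lay on one side of every young library, as for 47 of all genes tested. The count was 155 without Y VEH F2, 170 without O VEH F2 and 391 without Y VEH M1. Levels below are CPM after TMM normalization, given as lowest, median and highest library.

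Genes of the naive and recirculating state were lower in old CD4 T cells. Of 15 genes in this list 14 were tested, 9 fell, none rose, and the median log2 fold change was -1.14, beside -0.01 over all genes tested. Ccr7, the receptor that guides T cells into lymph nodes, ran from 51.5 over 135 to 289 CPM in young and from 19.6 over 47.3 to 97.3 CPM in old libraries. Most old libraries lay below the young range, and O FIS M1 and O FIS M2 lay within it. Ccr7 fell by 1.57 ± 0.31 (log2 ± SE, edgeR adjusted p = 0.00687).

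The transcription factor gene Lef1 ran from 376 over 790 to 1206 CPM in young and from 110 over 409 to 515 CPM in old libraries, a fold change of -1.23 ± 0.26 (edgeR adjusted p = 0.00923). Tcf7, which encodes TCF1, stood at 389 to 562 CPM in young and 174 to 441 CPM in old libraries, with a single old library, O FIS M1, inside the young range (-0.90 ± 0.16, edgeR adjusted p = 0.00368). Actn1, an actin crosslinker, had the smallest p of the list at -1.93 ± 0.28 (61.8 to 271 CPM young and 19.6 to 73.5 CPM old, edgeR adjusted p = 0.000793). Foxp1, a transcription factor that maintains quiescence of naive T cells, was 582 to 1785 CPM in young and 412 to 612 CPM in old libraries (-1.17 ± 0.18, edgeR adjusted p = 0.00101).

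Igfbp4, an insulin-like growth factor binding protein gene, was lower by the same test (-1.63 ± 0.33, adjusted p = 0.00705), a call lost with members thinned to 1000 UMIs (-1.09, adjusted p = 0.0730). Dapl1 (-2.58), the transcription factor gene Bach2 (-1.13) and the kinase gene Txk (-0.71) were the other DARs of the list. S1pr1, which directs exit from lymphoid tissue (-0.69 ± 0.20, adjusted p = 0.0676), Klf2 (-0.34 ± 0.27), and the interleukin-7 receptor gene Il7r (0.18 ± 0.20) did not pass.

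**Figure D2:**
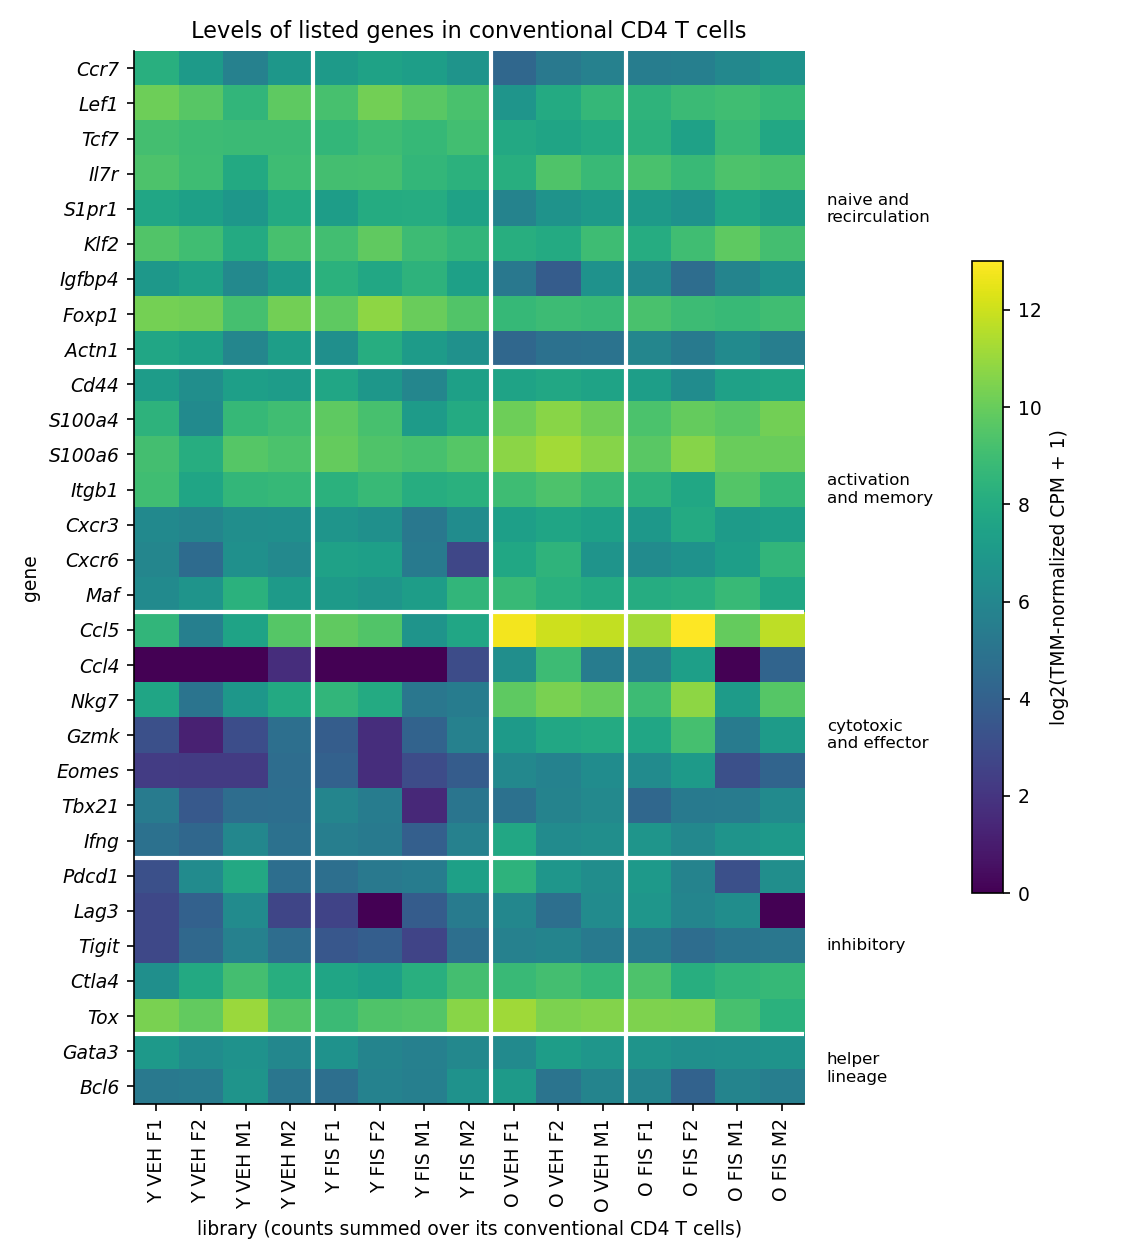
The heatmap shows log2(TMM-normalized CPM + 1) of 30 genes in CD4 T cells, with one column for each of the 15 libraries ordered by group and genes set in blocks by list. Ccl5 is higher in each of the 7 old libraries (964 to 11015 CPM) than in any of the 8 young ones (48.0 to 891 CPM), and O FIS M1 is the old library with the lowest Ccl5, Gzmk, Nkg7 and Eomes.

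Most tested genes of the cytotoxic and effector programme rose. Of 18 genes in the list 13 were tested, 10 rose, none fell and 3 did not pass, with a median log2 fold change of 1.60. A gene could be tested if over 10% of the members of either age had a UMI. Gzmk, Eomes and Ccl4 met this only in old members (147, 96 and 61 of 443). In young members they were found in 26, 18 and 4 of 785. The tally and its median are therefore weighted towards genes high in old members. Ccl5, a chemokine that draws T cells and monocytes, ran from 48.0 over 295 to 891 CPM in young and from 964 over 3580 to 11015 CPM in old libraries. Every old library lay above every young one, with O FIS M1 the lowest of the old and O FIS F2 the highest. The log2 fold change of Ccl5 was 3.37 ± 0.53 (edgeR adjusted p = 0.00119).

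Gzmk encodes granzyme K, a granule protease of memory-type T cells. Its level ran from 1.26 over 10.5 to 50.6 CPM in young and from 40.8 over 208 to 572 CPM in old libraries, with O FIS M1 alone below the highest young library, Y FIS M2. The fold change of Gzmk was 3.85 ± 0.50 (edgeR adjusted p = 0.000211). Nkg7, a cytotoxic granule membrane protein gene, was at 31.6 to 381 CPM in young and 139 to 1783 CPM in old libraries (2.50 ± 0.47, edgeR adjusted p = 0.00462). Eomes, the T-box transcription factor of cytotoxic and memory T cells, was at 2.30 to 23.8 CPM in young and 8.17 to 134 CPM in old libraries (2.79 ± 0.45, edgeR adjusted p = 0.00138). For both Nkg7 and Eomes the libraries below the young maximum were O FIS M1 and, for Eomes, O FIS M2.

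Ccl4, a further chemokine of activated lymphocytes, was close to absent in young CD4 T cells. Summed over libraries it had 7 UMIs in 785 young members and 428 in 443 old members, and edgeR gave 5.72 ± 0.74 (adjusted p = 0.000211). O VEH F2 stood at 488 CPM, against 0 to 162 CPM in the other old libraries. O FIS M1 had no Ccl4 UMI, as in 6 of the 8 young libraries. Ifng, the gene of interferon gamma, ran from 14.5 over 33.7 to 64.6 CPM in young and from 67.1 over 106 to 220 CPM in old libraries without overlap (1.60 ± 0.32, edgeR adjusted p = 0.00635). Cst7, an inhibitor of granule cathepsins, rose by 1.67 ± 0.27, and Fasl, Runx3 and Ctsw completed the DARs of the list. Tbx21, encoding T-bet, had 1.82 to 60.1 CPM in young and 19.6 to 74.4 CPM in old libraries and did not pass (0.65 ± 0.40, adjusted p = 0.484).

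The promoters of 3 genes that rose (Gzmk, Nkg7, Ccl5) and 1 that fell (Ccr7) are shown, since T-box, RUNX and TCF/LEF factors are known regulators of T cell states. Each sequence is the 250 bases before the start of the canonical transcript on its own strand, read from GRCm39 with the GENCODE M39 annotation. Capitals mark matches to GGTGTG (T-box), TGTGGT (RUNX) or CTTTGA (TCF/LEF) or their reverse complements, and GGTGTG and TGTGGT can share letters. Gzmk lies on the minus strand of chromosome 13 (chr13:113317432-113317681), Nkg7 on the plus strand of chromosome 7 (chr7:43086247-43086496), and Ccl5 and Ccr7 on the minus strand of chromosome 11 (chr11:83421346-83421595 and chr11:99045912-99046161).
Gzmk: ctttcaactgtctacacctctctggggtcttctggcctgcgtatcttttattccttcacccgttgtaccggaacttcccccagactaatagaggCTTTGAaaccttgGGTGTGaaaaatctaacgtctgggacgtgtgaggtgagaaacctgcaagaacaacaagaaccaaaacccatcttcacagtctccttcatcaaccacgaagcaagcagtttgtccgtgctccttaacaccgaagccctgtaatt
Nkg7: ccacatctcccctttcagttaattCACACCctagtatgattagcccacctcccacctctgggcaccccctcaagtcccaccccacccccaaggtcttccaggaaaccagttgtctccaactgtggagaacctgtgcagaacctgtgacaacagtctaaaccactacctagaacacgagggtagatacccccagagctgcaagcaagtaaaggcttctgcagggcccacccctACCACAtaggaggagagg
Ccl5: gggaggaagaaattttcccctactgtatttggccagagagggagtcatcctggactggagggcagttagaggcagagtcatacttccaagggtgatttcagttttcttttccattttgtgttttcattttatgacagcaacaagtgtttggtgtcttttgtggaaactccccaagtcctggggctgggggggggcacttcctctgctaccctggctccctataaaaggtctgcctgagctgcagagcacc
Ccr7: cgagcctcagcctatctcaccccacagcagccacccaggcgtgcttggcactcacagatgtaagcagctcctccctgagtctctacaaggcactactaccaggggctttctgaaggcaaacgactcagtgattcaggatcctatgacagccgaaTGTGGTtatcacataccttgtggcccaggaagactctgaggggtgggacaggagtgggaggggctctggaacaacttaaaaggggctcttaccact
The T-box letters were in 16.6% of the promoters of 21431 genes (3561), the RUNX letters in 2788 of them and the TCF/LEF letters in 14.1% (3018). Among the 10 cytotoxic genes that rose, Gzmk, Nkg7 and Fasl held the T-box letters, and the Ccl5 window held none of the 3 motifs. Of the same 10, 2 held the RUNX and 1 the TCF/LEF letters. Of the 9 naive genes that fell, 2 held the T-box, 2 the RUNX and 1 the TCF/LEF letters. These matches describe letters in the windows shown and no binding was measured.

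Activation and memory genes rose in part. Of 20 genes, all tested, 7 rose, none fell, and all 20 had a positive fold change with a median of 0.94. Cxcr3, a receptor for interferon-induced chemokines, ran from 36.3 over 82.8 to 110 CPM in young and from 123 over 161 to 245 CPM in old libraries without overlap (1.12 ± 0.20, edgeR adjusted p = 0.00312).

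The calcium-binding protein genes S100a6 (272 to 972 CPM young, 808 to 2327 CPM old, 1.17 ± 0.20, edgeR adjusted p = 0.00208) and S100a4 (74.6 to 862 CPM young, 631 to 1654 CPM old, 1.47 ± 0.35, adjusted p = 0.0233) rose as well. In all kept cells S100a6 was at a median of 1868 CPM in young and 1756 CPM in old libraries. The S100a4 call was lost without Y VEH F1, O VEH F2 or O FIS M2 (edgeR adjusted p of 0.0568, 0.0689 and 0.0601) and in members with 2 or more Cd4 UMIs (1.42, adjusted p = 0.0870). S100a10, Anxa2 and Lgals1 were further DARs of the list. The adhesion receptor gene Cd44 (0.37 ± 0.23), the integrin gene Itgb1 (0.42 ± 0.22), Cxcr6 (1.36 ± 0.48, adjusted p = 0.145), the cytokine receptor gene Il2rb (0.54) and the transcription factor gene Maf (1.00 ± 0.28, adjusted p = 0.0597) did not pass.

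Inhibitory receptors were variable between libraries and none passed in 10 genes tested (median 0.48). Pdcd1, encoding PD-1, ran from 7.91 over 40.2 to 228 CPM in young and from 8.17 over 85.9 to 338 CPM in old libraries, so both ages covered almost the same range (0.74 ± 0.60, edgeR adjusted p = 0.630). Lag3 (1.78 ± 0.57, adjusted p = 0.0972), Tigit (1.10, adjusted p = 0.0848), Ctla4 (0.81, adjusted p = 0.154), Tnfsf8 (0.30) and Tox (0.26) did not pass. Havcr2, which encodes TIM-3 and was too sparse for the model, had 7 UMIs in young and 73 in old members.

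Helper lineage genes gave little signal at this depth. Of 16 genes 5 were tested and none passed. Gata3, the master regulator of type 2 helper cells, was at 49.0 to 127 CPM in young and 74.6 to 148 CPM in old libraries (0.42, edgeR adjusted p = 0.278), and Bcl6, that of follicular helper cells, had a fold change of 0.07. Il17a had 19 UMIs in young and 27 in old members, Il5 2 and 4, and Il13 1 and 1. Il17f had 37 and 7, Il4 57 and 42, and Il21 115 and 79 in the same order. These are raw sums over 785 young and 443 old members, not scaled to depth, so a lower sum in old is not a lower level. The Il17a UMIs were in 1 library each of Y VEH, Y FIS and O VEH and in 2 of O FIS.

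In the remaining lists, 2 of 7 tissue residence genes rose, namely Itga4, an integrin chain for vascular adhesion (0.82, edgeR adjusted p = 0.0172), and Rgs1 (1.14, adjusted p = 0.0275), whereas Cd69 (0.05) and Cxcr4 (-0.21) did not pass. Of 16 receptor signalling genes Cd6 (0.74) and Ptpn22 (0.57) rose. Of 14 interferon response genes Ly6a and Psmb8 rose. Ly6a, which encodes Sca-1, ran from 206 over 268 to 395 CPM in young and from 481 over 787 to 1232 CPM in old libraries without overlap (1.47 ± 0.19, edgeR adjusted p = 0.000211). In all kept cells Ly6a was at a median of 1032 CPM in young and 1229 CPM in old libraries, and the part of RNA from other cells was not tested. Isg15 (0.09) and Irf7 (0.62, adjusted p = 0.257) did not pass and Oasl2 was not tested.

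None of 15 immediate early and stress genes (median -0.03), 6 cell cycle genes (median 0.04) or 4 regulatory T cell genes (median 0.50) passed. Cdkn1a and Cdkn2a, the cell cycle inhibitor genes used to mark senescent cells, were too low to test in CD4 T cells: Cdkn1a had 0 to 12.2 CPM in young and 0 to 17.3 CPM in old libraries, and Cdkn2a 0 to 7.22 and 0 to 27.6 CPM.

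Among DARs with no overlap between ages and the largest fold changes were Lilrb4b (3.76 ± 0.64, edgeR adjusted p = 0.00205) and Lilrb4a (2.68 ± 0.59, adjusted p = 0.0141), which encode immunoglobulin-like receptors, Dlg2 (3.18 ± 0.47, adjusted p = 0.000793) and the peptide hormone receptor gene Glp2r (2.63 ± 0.51, adjusted p = 0.00601). In young libraries all 4 were at a higher level in the sum of all kept cells than in CD4 T cells, with medians before TMM scaling of 12.8 against 1.08 CPM for Lilrb4b, 18.7 against 1.89 CPM for Lilrb4a, 32.6 against 3.67 CPM for Dlg2 and 60.0 against 3.79 CPM for Glp2r. In old libraries Lilrb4b was at 21.6 against 32.5 CPM, Lilrb4a at 29.3 against 16.7 CPM, Dlg2 at 63.2 against 36.1 CPM and Glp2r at 58.2 against 21.7 CPM, and the part of RNA from other cells was not tested.

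Those with the largest decreases were Myo10 (-2.08 ± 0.35, edgeR adjusted p = 0.00205), Sh3pxd2a (-2.06 ± 0.33, adjusted p = 0.00124), the non-coding Gm11707 (-1.83 ± 0.37), the neuronal vesicle gene Nsg2 (-1.49 ± 0.22, 103 to 169 CPM young and 24.5 to 74.4 CPM old) and the Mediator kinase gene Cdk8 (-1.46 ± 0.17, adjusted p = 9.76e-05). The Sh3pxd2a call was lost in members with 2 or more Cd4 UMIs (-1.80, edgeR adjusted p = 0.0950). Myo10 was at a median of 103 CPM in all kept young cells against 23.6 CPM in young CD4 T cells, and at 142 against 3.94 CPM in old. Cdk8 was also lower in all kept cells, at a median of 615 CPM in young and 306 CPM in old libraries, against 643 and 250 CPM in CD4 T cells before TMM scaling. It belongs to a list of 5 genes set aside because their level differs between libraries, and the sum of that list ran from 3520 to 6339 CPM in young and from 1285 to 3432 CPM in old members. Smooth muscle genes (Acta2 -2.51, Tagln -2.46) and fibroblast genes (Col3a1 -1.98, Gsn -1.35) were also DARs lower in old members, whose summed fibroblast markers ran from 106 to 519 CPM against 272 to 1859 CPM in young. Their part in the lower DARs was not tested.

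**Figure D3:**
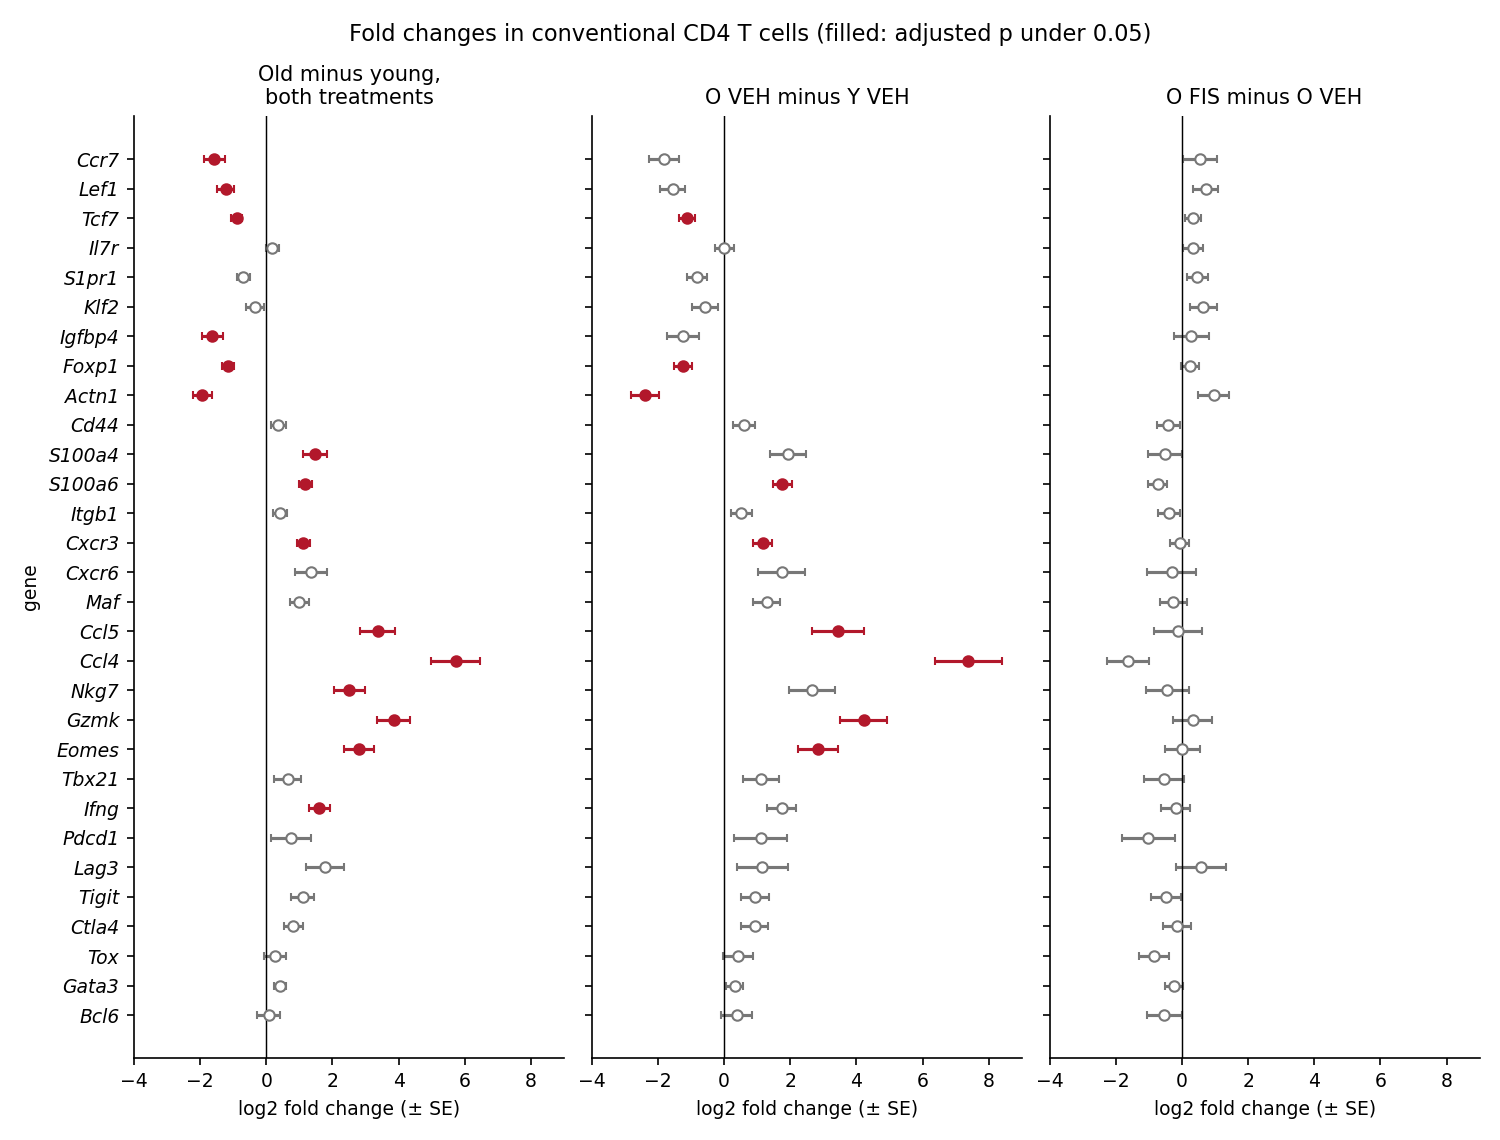
Log2 fold changes ± SE in CD4 T cells are plotted for each named gene in 3 comparisons: old against young over both treatments, O VEH against Y VEH, and O FIS against O VEH. Filled red points have an adjusted p under 0.05. Ccl5, Gzmk and Eomes lie to the right and Ccr7, Lef1, Tcf7 and Actn1 to the left in the first and second panels, and no point of the third panel is filled.

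The higher cytotoxic levels were then resolved to single cells. A UMI of Ccl5 was present in 197 of 443 old and 83 of 785 young members, of Nkg7 in 213 and 95, of Gzmk in 147 and 26, and of Eomes in 96 and 18. By library, Ccl5 was detected in 14.6, 3.97, 11.4 and 13.5% of members in Y VEH, 28.1, 16.4, 5.83 and 2.30% in Y FIS, 50, 63.9 and 47.6% in O VEH and 26.1, 66.7, 28.6 and 54.5% in O FIS. Only Y FIS F1 among the young exceeded an old library, O FIS F1.

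With every cell thinned to 1000 UMIs, the median share with Ccl5 was 8.76% (1.74 to 17.5%) in young and 40.7% (21.1 to 55.9%) in old libraries, which did not overlap. Endothelial cells, given as the background of free RNA, were chosen by Cdh5 UMIs and by no UMI of Cd3d, Cd3e, Cd3g or Trac. Leaving out cells with a receptor gene UMI can lower the T cell RNA found in them. Their library median depth was 3306 to 5389.5 UMIs. The median thinned share with Ccl5 was 0.383% in young and 1.15% in old endothelial cells, and the highest was 2.68% (O VEH M1). Over all kept cells the median level of Ccl5 before TMM scaling was 141 CPM in young and 394 CPM in old libraries, against 276 and 3778 CPM in CD4 T cells. For Gzmk the median thinned share was 1.02% in young and 13.1% in old CD4 T cells, and 0.0325% and 0.0358% in endothelial cells. The highest endothelial share of Gzmk was 0.666% (O VEH F2).

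Ccl5 detection coincided with the other genes of the programme within a cell. Of old members with a Ccl5 UMI, 87.8% had Nkg7, 64.5% Gzmk, 44.2% Eomes and 29.4% Ccl4. Of old members without one, 16.3% had Nkg7, 8.13% Gzmk, 3.66% Eomes and 1.22% Ccl4. Ccr7 ran the other way, in 7.61% and 30.1%, whereas Pdcd1 was similar in both (35.0% and 27.6%). Median depth was 6614 and 6510.5 UMIs in the same order.

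The few young members with Ccl5 had Gzmk, Eomes and Ccl4 less often than the old members with Ccl5. Of these 83 young cells 71.1% had Nkg7, 37.3% had Ifng and 14.5% had Gzmk, whereas 10 cells had Eomes and 2 had Ccl4. Of all old members, with or without Ccl5, the cells with both Ccl5 and Gzmk numbered 11 of 34, 26 of 72 and 39 of 126 in O VEH F1, F2 and M1. They numbered 26 of 138, 15 of 30, 1 of 21 and 9 of 22 in O FIS. In each young library they numbered 1 or 2. Gzmb, the granzyme of fully armed cytotoxic cells, which was chosen after its values were seen, was found in 17.3% of old members with Ccl5 and 0.813% of those without. Summed over 785 young and 443 old members, Gzmb had 56 and 144 UMIs. Gzma, another granzyme gene, went the other way in raw UMIs, with 144 in young and 52 in old members. Of the young Gzma UMIs, 136 were in Y FIS.

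**Figure D4:**
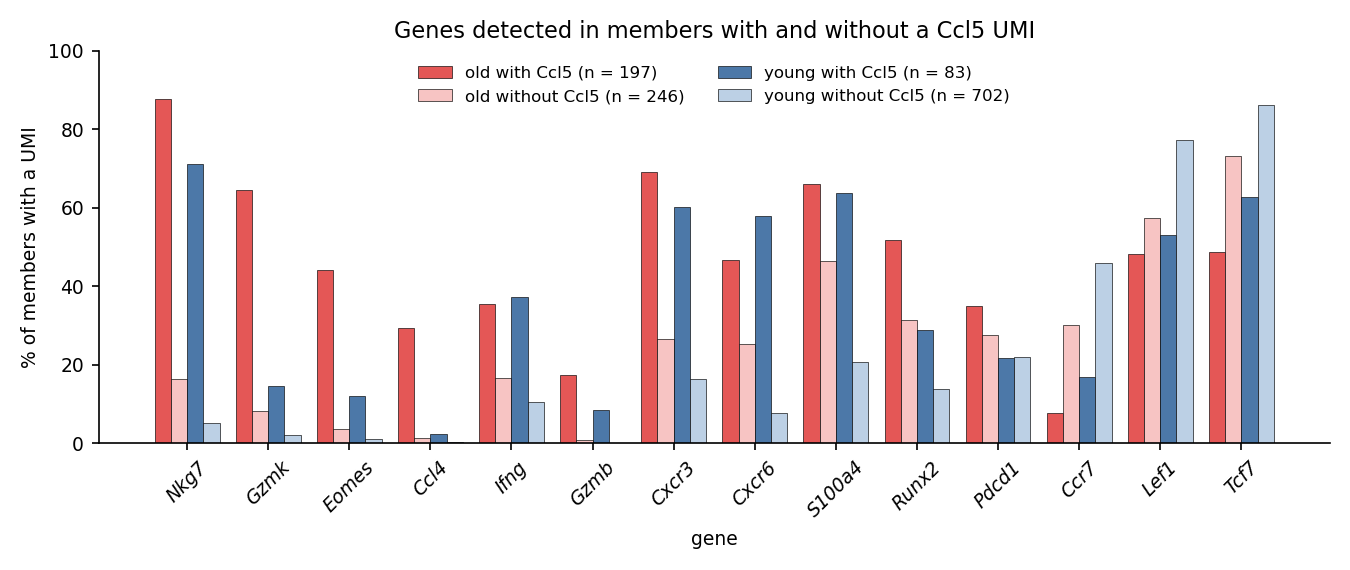
Bars give the percentage of CD4 T cells with a UMI of each of 14 genes, for old and young members with and without a Ccl5 UMI (197, 246, 83 and 702 cells). Nkg7 was frequent in cells with Ccl5 at both ages (87.8% old, 71.1% young). Gzmk was found mainly in the old (64.5% against 14.5%), as were Eomes and Ccl4. Cells are pooled over libraries and are not replicates, and in O FIS M1 only 1 of 6 cells with Ccl5 had Gzmk.

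Because Cd4 was often a single UMI, the same genes were examined in members with 2 or more. Among those, Ccl5 was detected in 13 of 23, 27 of 37 and 34 of 76 cells in O VEH F1, F2 and M1 and in 15 of 56, 11 of 17, 3 of 10 and 7 of 12 in O FIS, against 7 of 46, 2 of 53, 7 of 95 and 11 of 65 in Y VEH and 7 of 26, 5 of 29, 3 of 39 and 1 of 53 in Y FIS. The old against young fold change of Ccl5 was 3.22 in them (edgeR adjusted p = 0.0428), of Gzmk 3.30 (adjusted p = 0.00598), of Nkg7 2.46 (adjusted p = 0.0155) and of Ccl4 6.24 (adjusted p = 0.000361). Eomes kept its direction at 2.31 but did not pass (adjusted p = 0.0736), nor did Ccr7 (-1.59, adjusted p = 0.0645) or Lef1 (-1.20, adjusted p = 0.106).

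Ageing without treatment was addressed by O VEH against Y VEH, with 3 and 4 libraries. Of 7185 genes 95 were DARs (1.32%), 57 higher (0.793%) and 38 lower (0.529%) in O VEH, and for 94 of them the groups did not overlap, as for 962 of all genes tested. Leaving out a library moved the number to 33 without Y VEH F1, 28 without Y VEH F2, 202 without Y VEH M1, 57 without Y VEH M2, 23 without O VEH F2 and 47 without O VEH M1.

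In the cytotoxic list 7 of 15 genes rose (median 2.11) and in the activation list 4 of 20 (median 1.10), whereas in the naive list 3 of 14 fell (median -1.34). Here too a gene could be tested through a single side. Gzmk was detected in 0.794 to 4.55% of members in Y VEH libraries and 35.3 to 38.1% in O VEH libraries. Gzmk was at 7.91, 1.26, 7.49 and 26.1 CPM in Y VEH and 133, 217 and 248 CPM in O VEH without overlap, with a fold change of 4.22 ± 0.71 (edgeR adjusted p = 0.00446). The call held with each library left out.

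Ccl4 had 2 UMIs in 1 of the 4 Y VEH libraries and was a DAR (edgeR adjusted p = 0.000778). It was at 86.3, 488 and 43.7 CPM in the O VEH libraries, a spread wider than that of Gzmk. Ccl5 stood at 382, 48.0, 186 and 764 CPM in Y VEH and 7037, 4056 and 3580 CPM in O VEH (3.44 ± 0.78, edgeR adjusted p = 0.0375). The groups were far apart, yet the Ccl5 call was lost without Y VEH F1, Y VEH F2, O VEH F1, O VEH F2 or O VEH M1. Eomes (2.83 ± 0.60, adjusted p = 0.0257) lost its call without Y VEH F1, Y VEH F2, O VEH F2 or O VEH M1.

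Chst11, a chondroitin sulfotransferase gene (3.88 ± 0.49, edgeR adjusted p = 0.000627), and Lilrb4b (4.35 ± 0.84, adjusted p = 0.0159) were the other DARs with the largest increases. Chst11 was at 0, 8.85, 9.36 and 7.93 CPM in Y VEH and 74.6, 112 and 129 CPM in O VEH. Actn1 was the naive gene with the largest decrease among DARs (-2.39 ± 0.42, adjusted p = 0.00631), from 204, 166, 61.8 and 156 CPM in Y VEH to 19.6, 27.4 and 29.7 CPM in O VEH. S100a6 (1.76 ± 0.29, adjusted p = 0.00441), Cxcr3 (1.17 ± 0.28, adjusted p = 0.0483) and Tcf7 (-1.12 ± 0.24, adjusted p = 0.0257) were DARs as well. Cxcr3 lost its call without each library other than Y VEH M1, Tcf7 without Y VEH F1, Y VEH F2, O VEH F1, O VEH F2 or O VEH M1, and Actn1 without O VEH F2. Als2cl (-2.47), Gm52870 (-2.37), Lypd6b (-2.37) and the ganglioside synthase gene St8sia1 (-2.24) had the other large decreases, each lost in some of the fits without a library. Ccr7 (-1.82 ± 0.45, adjusted p = 0.0533), Lef1 (-1.56 ± 0.38, adjusted p = 0.0523) and Ifng (1.74, adjusted p = 0.0540) did not pass.

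Whether fisetin altered old CD4 T cells was addressed by O FIS against O VEH. None of 7137 genes was a DAR (0%) by edgeR's quasi-likelihood test, where 295 had an unadjusted p under 0.05, and DESeq2 and limma-voom also gave 0. Ccl5 was at 7037, 4056 and 3580 CPM in O VEH and 2361, 11015, 964 and 3383 CPM in O FIS F1, F2, M1 and M2. The O FIS libraries spanned the O VEH range on both sides, with a fold change of -0.12 ± 0.72 (95% interval -1.53 to 1.28). For Gzmk it was 0.32 (-0.82 to 1.47), for Nkg7 -0.44 ± 0.65 and for Eomes 0.01 ± 0.53. Ccl4 was at 51.8, 162, 0 and 17.2 CPM in O FIS and had a fold change of -1.62 ± 0.63 (edgeR unadjusted p = 0.0197, adjusted 1.00).

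All 13 naive genes tested had a positive fold change in this comparison (median 0.55, beside 0.02 over all genes), and none passed. Lef1 was at 110, 245 and 409 CPM in O VEH and 350, 469, 515 and 412 CPM in O FIS (0.72 ± 0.38), Ccr7 at 19.6, 36.6 and 50.7 and at 44.9, 47.3, 65.3 and 97.3 CPM (0.55, 95% interval -0.47 to 1.56). Lef1 and Ccr7 overlapped between treatments only through O VEH M1. Of 20 activation genes 7 and of 15 cytotoxic genes 4 had a positive fold change. The 4 tested genes of that set-aside list were also all positive (median 0.64). The O FIS libraries M1, M2 and F2 held 21, 22 and 30 members.

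O FIS against Y VEH, which shares its libraries with the comparisons above, gave 10 DARs of 6972 genes (0.143%), all higher in O FIS. Gzmk had the largest fold change (4.54 ± 0.72, edgeR adjusted p = 0.00835), and other DARs without overlap included Epha3 (3.16), Ier3 (2.98) and the pseudogene Gm12216 (1.78). Epha3, an ephrin receptor gene, was at a median of 85.2 CPM in all kept cells of young libraries against 9.43 CPM in CD4 T cells, and Ier3 at 58.2 against 4.69 CPM. The count was between 3 and 25 with a library left out.

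In young aortas, Y FIS against Y VEH gave 1 DAR of 6858 genes (0.0146%), Cd74, the invariant chain of MHC class II. Cd74 was at 289, 211, 831 and 535 CPM in Y VEH and 62.7, 75.8, 45.4 and 30.3 CPM in Y FIS, without overlap (-3.19 ± 0.48, edgeR adjusted p = 0.0186). Antigen-presenting cells carry Cd74 at high level, and the sum of all kept cells had a median of 2523 CPM in young libraries. B cell markers were high in Y VEH F1 and Y VEH F2 and Cd74 was highest in Y VEH M1. The part of RNA from other cells in the difference was not tested. No gene was a DAR without Y FIS F1, Y FIS F2, Y FIS M1, Y FIS M2 or Y VEH M2, by limma-voom, with the replicate block, under filterByExpr alone, in members with 2 or more Cd4 UMIs or with members thinned to 1000 UMIs. Ccl5 (0.01 ± 0.74) and Ccr7 (0.04) did not pass. The fisetin effect did not differ between ages for any of 7315 genes (0%) by edgeR's test of the interaction, with 231 genes at an unadjusted p under 0.05 and 0 by DESeq2 and limma-voom.

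The age difference was then set beside that of CD8 T cells from the same libraries. CD8 T cells (2358 cells, library median 5398 to 12896 UMIs) gave 952 DARs of 7620 genes for old against young. A test of the difference between the 2 cell types, with libraries shared, called 3 of 7810 genes (0.0384%), all with a smaller or more negative age effect in CD4 T cells, namely S100a6 (-1.44 ± 0.25), Ranbp10 (-1.15 ± 0.21) and the haemoglobin gene Hba-a2 (-6.31 ± 1.16), each with an edgeR adjusted p of 0.0426. Ranbp10 and Hba-a2 were named after their values were seen. S100a6 rose by 1.17 in CD4 and 2.65 in CD8 T cells. Hba-a2 varied by library, up to 1589 CPM in young CD4 (Y FIS F2) and 4621 CPM in old CD8 T cells. The number called was 0 without Y FIS M1, Y FIS M2, O FIS F1 or O VEH F1, under filterByExpr alone and with libraries of 50 or more cells.

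Gzmk, Ccl5 and Eomes rose with age in both cell types (edgeR adjusted p of 0.000308, 4.26e-05 and 0.000936 in CD8 T cells). The fold change of Gzmk was 3.85 in CD4 and 3.30 in CD8 T cells, of Ccl5 3.37 and 2.35, and of Eomes 2.79 and 1.65, and none of these differences between cell types passed. Pdcd1 had 0.74 in CD4 and 3.34 in CD8 T cells (difference -2.51, edgeR adjusted p = 0.0649), and Isg15 0.09 and 1.17 (difference -1.20, adjusted p = 0.0527). By the same thinned calls, given as a description, the naive-type share went from 25.2 ± 6.02% in young to 6.20 ± 3.79% in old CD8 T cells, and the effector-type share from 30.5 ± 8.13% to 66.3 ± 9.43% (mean ± SD).

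**Figure D5:**
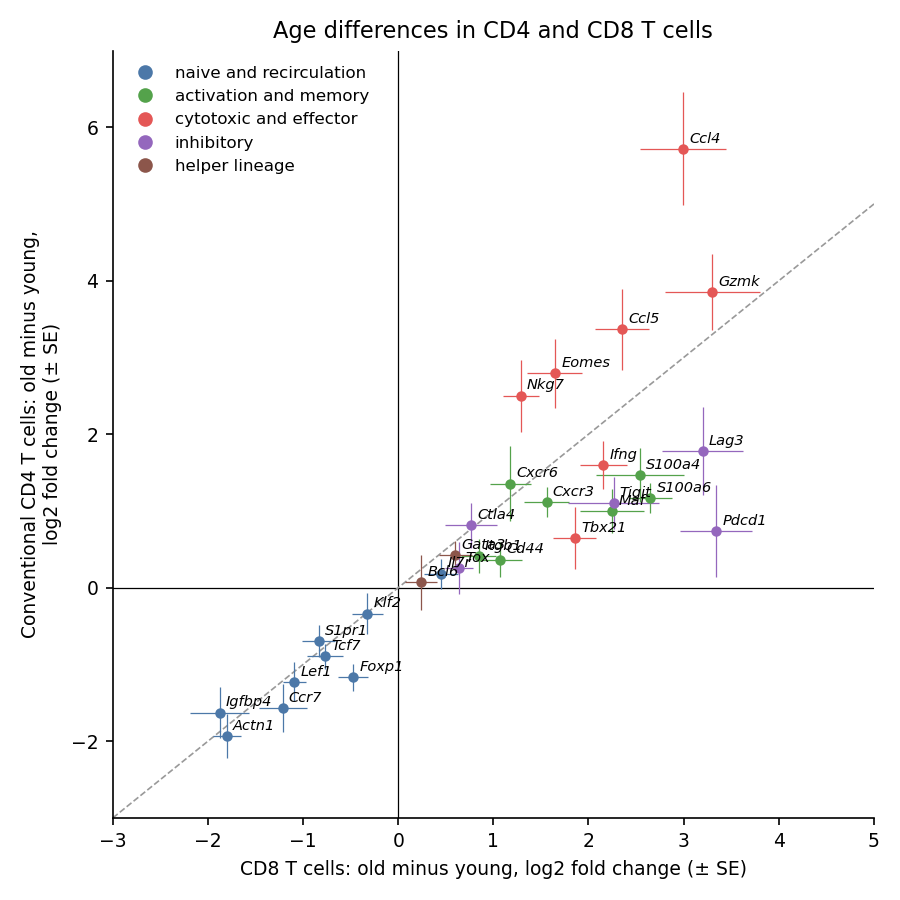
The old against young log2 fold change (± SE) of each named gene in CD4 T cells is plotted against that in CD8 T cells from the same libraries, with the line of equal change. Gzmk, Ccl5 and Eomes lie above the line, and Pdcd1, Lag3 and S100a6 below it.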

How the data were processed

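Single-cell RNA libraries (10x 3′ chemistry, version 3.1) of sorted viable aortic cells were deposited by the authors as raw UMI counts per gene and barcode, one matrix per library, made with Cell Ranger 8.0.1 on GRCm39 per the submitters' processing notes, which also name Seurat 5.2.0. Counts are molecules and not normalized. Doublets were not called, and the 6 genes required at 0 remove only doublets that express them. Members and gene lists were chosen with earlier results of these data known.

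Members' counts were summed per library of at least 10 members. Genes passing edgeR's filterByExpr and detected in over 10% of members of either side were TMM-normalized and tested by edgeR's quasi-likelihood F test (edgeR 4.0.16, limma 3.58.1, R 4.3.3) with group and sex as terms and Benjamini-Hochberg adjustment over all genes tested. All 15 libraries entered each fit and shared one estimate of the spread. SEs were taken as the fold change over the root of F. The test was tested on simulated data first. Shares, ratios and types were compared over libraries by two-sided exact permutation tests (scipy 1.17.1, Python 3.11.15). A few listed genes are not reported here, and naive-type and effector-type cells were called without them, which reduced the naive genes of that call from 3 to 2 after the data were seen. The 95% intervals of fold changes are normal intervals from the SE. Named genes were a list of 38 genes, plus up to 5 DARs in each direction for every contrast, ranked by fold change among DARs without overlap between sides and leaving out the rule's genes, receptor and immunoglobulin segments and sex-linked genes. Of other list genes, up to 4 with the smallest p are examples. Replicate libraries of a group differed by more than sampling noise (chi-square per degree of freedom 2.0 to 10.7), so none was counted as a copy. Alternatives included DESeq2 1.42.0, limma-voom, other filters and scalings, stricter rules for members, thinning, a replicate block and leaving out each library. Promoters came from GRCm39 with GENCODE M39.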

Additional observations from a re-analysis of the deposited data

Results flagged for a closer look

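The library values below stood apart from the other 3 libraries of their group, by a gap over 0.829 of the group's range. The CD4 against CD8 differences and the count of T cells outside the members, given last, were flagged without that rule. For continuous values chance gives this in about 1 in 20 groups (5%), and 165 groups of 4 libraries were examined for 19 such values. A library with any count beside 3 at 0 meets the cut whatever its level. This was so for Oasl2, gamma delta T cell genes and thymocyte genes in O FIS. The share of CD4 T cells was 1.67% in O FIS F1 (others 0.210 to 0.427%), which also had the highest summed B cell markers of its group at 2461 CPM (others 162 to 417) and plasma cell markers at 122 CPM (others 8.12 to 15.2), and Oasl2 at 17.3 CPM (others 0). The log2 CD4 to CD8 ratio was -1.54 in Y FIS M1 (others -0.39 to -0.26).

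Several named genes were high in a single young library. Y FIS M2 had Maf at 377 CPM (others 110 to 151), Pdcd1 at 168 CPM (others 26.1 to 43.6) and Tnfsf8 at 397 CPM (others 105 to 138). Y VEH M1 had Lag3 at 75.8 CPM (others 5.67 to 15.2) and Bcl6 at 103.9 CPM (others 32.9 to 41.7), and Y VEH M2 had Eomes at 23.8 CPM (others 3.75 to 3.96).

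Summed markers of other cells stood apart in these libraries: macrophage genes at 1264 CPM in Y VEH F1 (others 146 to 323), fibroblast genes at 1859 CPM in Y FIS M1 (others 340 to 519), smooth muscle genes at 416 CPM in Y VEH F2 (others 35.7 to 97.2), erythroid genes at 8151 CPM in Y FIS F2 (others 19.3 to 105), gamma delta T cell genes at 12.5 CPM in Y FIS F1 (others 1.38 to 3.22) and 3.79 CPM in O FIS F2 (others 0), and thymocyte genes at 25.8 CPM in Y FIS M1 (others 2.75 to 5.01) and 7.58 CPM in O FIS F2 (others 0). The age effect differed between CD4 and CD8 T cells for S100a6 (-1.44), Ranbp10 (-1.15) and Hba-a2 (-6.31, log2). Outside the members, 244 T cells of Y VEH F1 had Cd4 and Cd8 UMIs with a thymocyte gene (other Y VEH libraries 4 to 27). The part of any of these values in the age differences was not tested beyond the fits without each library and without members that had a thymocyte gene or 50 or more Igkc UMIs.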

How the results depend on the processing

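The old against young count of 270 DARs was 155 to 391 with a library left out, 693 with no gene filter, 107 in members with 2 or more Cd4 UMIs and 109 with members thinned to 1000 UMIs. O VEH against Y VEH (95) gave 23 to 202 with a library left out, 450 with no filter, 151 by DESeq2, 30 with 2 or more Cd4 UMIs, 17 with 8 more genes at 0 and 61 with 50 or more cells per library. O FIS against O VEH (0) gave 57 with no filter. Y FIS against Y VEH (1) gave 0 to 4 with a library left out, 71 with no filter, 3 by DESeq2 and without the sex term, and 0 under filterByExpr alone, limma-voom, 2 or more Cd4 UMIs, thinning, 50 or more cells per library, and without members above the 95th percentile of UMIs or with 50 or more Igkc UMIs. O FIS against Y VEH (10) gave 3 to 25 with a library left out, 16 with RLE factors, 247 with no filter, 50 by DESeq2, 25 by limma-voom, 2 with 2 or more Cd4 UMIs, 24 without members above the 95th percentile and 20 without the sex term. The interaction (0) gave 51 with no filter. The CD4 against CD8 difference (3) gave 0 to 11 with a library left out, 6 with RLE factors and with 3 or more receptor genes, 170 with no filter, 0 under filterByExpr alone and with 50 or more cells, 14 by DESeq2 and without members above the 95th percentile, 19 by limma-voom, 10 with 2 or more Cd4 UMIs, 31 without members with a thymocyte gene and 13 without members with 50 or more Igkc UMIs. The causes were not tested.

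With 8 more genes at 0, the difference in share was 0.0113 for O VEH against Y VEH and 0.0305 for old against young, which was -8.41 points of T cells (exact permutation p = 0.0413) and -0.598 to -0.336 with a library left out. O FIS against O VEH ran from -0.614 to 0.0216 with a library left out. Y FIS against Y VEH was -0.258 with the rule on thinned cells (exact permutation p = 0.0286) and 1.31 points of T cells. The old against young log2 ratio was -0.80 with 2 or more Cd4 UMIs, -1.20 with 8 more genes at 0 and -0.81 with the rule on thinned cells, none past the threshold, and Y FIS against Y VEH ran from -0.42 to 0.19 with a library left out. The naive-type share ran from -3.47 to 5.61 for Y FIS against Y VEH with a library left out. The effector-type share was 27.8 (exact permutation p = 0.133) for old against young with 8 more genes at 0, and for Y FIS against Y VEH 2.86 with 8 more genes at 0 and -4.31 to 5.25 with a library left out.

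Named genes lost an old against young call 12 times, gained one 27 times and reversed 0 times. They lost an O VEH against Y VEH call 122 times, gained one 52 times and reversed 0 times. Genes without a call changed sign 26 and 24 times in the same order. Deviations from the fit with group and sex correlated at -0.326 to 0.0462 (median -0.156) in 21 same-numbered pairs, of which 0 exceeded 0.1. In 63 other pairs they correlated at -0.264 to 0.319 (median 0.0684), and 27 exceeded 0.1. Same-numbered pairs share sex, and the sex term itself lowers the correlation of libraries of one sex. Whether library numbers paired the samples could therefore not be told. With the replicate block O VEH against Y VEH gave 43 DARs and Y FIS against Y VEH 0. With 8 more genes at 0, too few libraries kept enough members to fit the other contrasts, and with 50 or more cells those that need the small O FIS libraries could not be fitted. Leaving out members with thymocyte genes or 50 or more Igkc UMIs, and libraries under 50 cells, and the reduced naive-type call were chosen after seeing the data. The O FIS contrasts rest on 21 to 30 members in 3 of 4 libraries.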
